A study of Mus musculus with 4 samples.

Results

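The genes described here are 10 markers of tubular injury and dedifferentiation, namely Havcr1, Spp1, Sox9, Clu, Krt18, Krt19, Krt20, Vcam1, Cd44 and Timp1. They were selected on their names, with the CLP + MLT over CLP ratios of these kidney libraries already known, and all 10 were found by symbol among the 55401 gene identifiers of the count files. The values below that compare CLP + MLT with CLP in kidney are therefore a description of the list and carry no test.

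RNA-seq counts were available for 4 libraries from C57BL/6 mice, 1 library in each group. Sepsis was induced by cecal ligation puncture (CLP), in which the cecum is tied and punctured so that gut bacteria leak into the abdomen. All 4 libraries came from mice with CLP, and no sham library was used here. The CLP kidney library is from mice with CLP alone, and the CLP + MLT kidney library is from mice whose drinking water held melatonin (MLT), dissolved with ethanol, at 25 μg/ml over the 14 days before the operation. The study's methods give male mice of 8 weeks and collection of kidneys at 24 h after CLP. They do not describe the hearts, so the CLP heart and CLP + MLT heart libraries are known only by tissue, strain and treatment, and no melatonin dose, age or time is given for them. The sources do not say whether a library was made from 1 mouse or from a pool, and the number at the end of the label CLP+MLT4 is not explained. With 1 library per group, no difference could be set against the spread between mice.

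When a kidney tubule is injured, surviving epithelial cells lose their transporters, flatten and take on features of a developing epithelium before they divide or recover. Some genes that are nearly silent in the resting tubule are switched on during this process, though resting levels were not measured here. KIM-1, the protein of Havcr1, and osteopontin, the protein of Spp1, are widely used as readouts of tubular injury. Several of the other genes are also used in other settings, since clusterin, VCAM-1, CD44 and TIMP-1 are made by vessels, leukocytes, fibroblasts and heart as well.

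Reads counted on genes ranged from 15883057 to 22927905 per library, with the largest number in CLP kidney. Mitochondrial genes took 14.8% of these counts in CLP kidney and 24.3% in CLP + MLT kidney, against 31.6% and 36% in the hearts. The tissues matched their labels. Cardiomyocyte markers summed to 35600 and 25400 CPM (counts scaled to a library's total on genes) in the CLP and CLP + MLT hearts and to 17.0 and 19.7 CPM in the kidneys. Genes of tubule epithelium identity, such as Pax8 and Cdh16, summed to 2890 and 3110 CPM in the CLP and CLP + MLT kidneys and to 46.1 and 84.8 CPM in the hearts.

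RefSeq promoter windows for build GRCm38.p6 were found for 6 of the 10 genes, Havcr1, Spp1, Krt18, Krt20, Cd44 and Timp1. The 250 bases before the transcription start are shown for the 3 of them that were lowest in CLP + MLT kidney relative to CLP and for Krt18, which was not lower. They are written 5′ to 3′ on the gene's strand, and capitals mark matches to the motifs named below. Havcr1 lies at chr11:46739973-46740222 on the plus strand, Spp1 at chr5:104434861-104435110 on the plus strand, Krt20 at chr11:99438154-99438403 on the minus strand and Krt18 at chr15:102027966-102028215 on the plus strand.
Havcr1: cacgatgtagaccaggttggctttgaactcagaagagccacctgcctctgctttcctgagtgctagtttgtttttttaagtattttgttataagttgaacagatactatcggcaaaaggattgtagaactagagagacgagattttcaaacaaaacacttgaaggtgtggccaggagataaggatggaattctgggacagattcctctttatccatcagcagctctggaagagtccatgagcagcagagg
Spp1: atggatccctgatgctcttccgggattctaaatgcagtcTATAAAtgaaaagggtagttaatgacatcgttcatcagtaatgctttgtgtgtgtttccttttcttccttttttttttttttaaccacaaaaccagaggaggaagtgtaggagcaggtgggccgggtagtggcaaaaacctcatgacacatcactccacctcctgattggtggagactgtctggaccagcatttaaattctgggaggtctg
Krt20: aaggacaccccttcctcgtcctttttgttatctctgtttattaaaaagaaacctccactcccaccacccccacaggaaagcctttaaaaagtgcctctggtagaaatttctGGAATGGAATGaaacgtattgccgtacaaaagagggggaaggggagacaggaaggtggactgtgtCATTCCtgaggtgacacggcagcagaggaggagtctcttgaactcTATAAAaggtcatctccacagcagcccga
Krt18: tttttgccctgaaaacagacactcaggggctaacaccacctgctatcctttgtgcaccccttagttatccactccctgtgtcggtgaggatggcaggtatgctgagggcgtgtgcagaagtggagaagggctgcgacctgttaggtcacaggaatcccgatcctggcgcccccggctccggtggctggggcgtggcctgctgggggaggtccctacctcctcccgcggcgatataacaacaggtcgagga

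Both strands were searched for motifs of factors active in injured epithelium and for the TATA box. The AP-1 motif was spelled TGANTCA. The STAT motif was spelled TTCNNNGAA. The TATA box was spelled TATAAA, the TEAD motif was GGAATG, and the NF-kB motif was searched by its consensus. Krt20 held TATAAA at bases −29 to −24 before the start and 3 matches of GGAATG, of which the first pair overlap by a base. Spp1 held TATAAA at −211 to −206, and Timp1, not shown, held GGAATG at −247 to −242. The Havcr1, Krt18 and Cd44 windows held no match, and none of the 6 windows held the AP-1, STAT or NF-kB letters. Among all 32851 windows of the same length, 12.6% held GGAATG, 12.4% held TATAAA, 7.02% the STAT letters, 6.75% the AP-1 letters and 3.90% the NF-kB motif. Of the 3 Havcr1 windows listed, the one shown is nearest to the start of the GENCODE gene, and it is still 5143 bases away, so it describes only one of the annotated starts. A match of letters is not evidence of binding.

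In kidney, the 10 genes split into some that were lower in CLP + MLT and some that were not. For each gene the CLP + MLT level was divided by the CLP level and put on a log2 scale, after scaling by the TMM method, and 1.5-fold, a log2 ratio of 0.58, was taken as the mark of a difference, the fold the study's methods name. All 10 genes passed the filter of a mean of at least 10 counts. Past 1.5-fold, 6 were lower in CLP + MLT (Havcr1, Krt20, Sox9, Spp1, Clu and Timp1), 3 were higher (Krt18, Krt19 and Cd44) and Vcam1 was neither. Of all 16932 genes tested in kidney, 11.6% were lower and 11% higher by that rule, 22.6% in either direction. The median log2 ratio of the 10 genes was −1.20, beside 0.0 for all genes, and the 5th and 95th percentiles of all genes were −0.99 and 0.91. In bulk tissue, fewer cells of a type and less RNA per cell cannot be told apart. Intervals given with a log2 ratio are 95% exact intervals for counting error only.

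**Figure D1:**
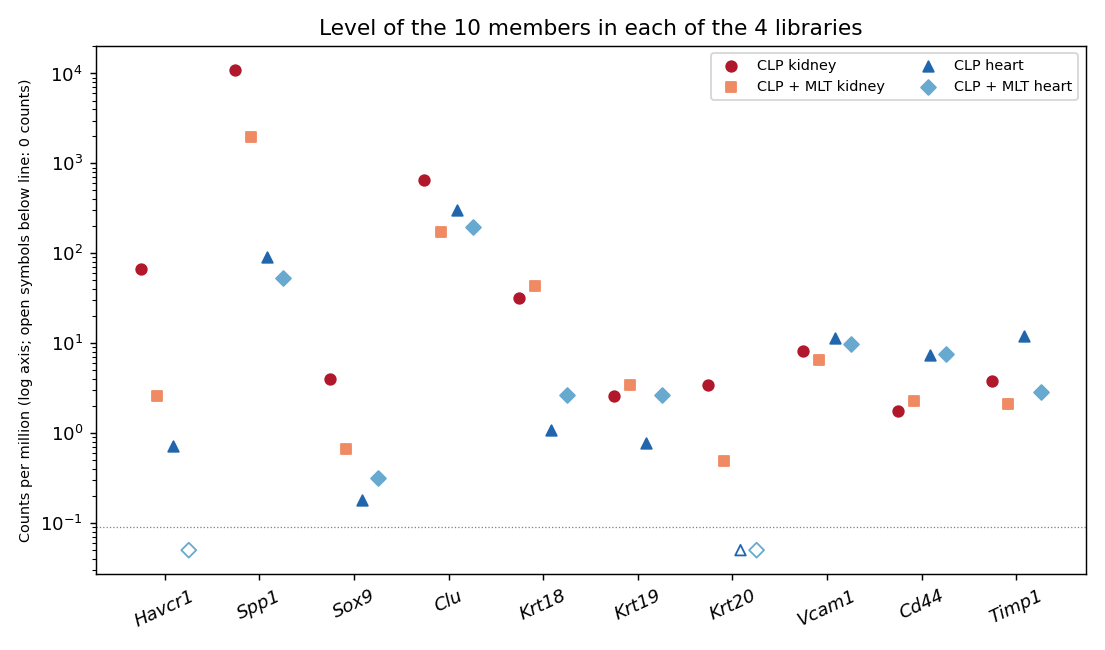
Level of each of the 10 genes in the 4 libraries, in CPM on a log axis; each point is 1 library and open symbols under the dotted line mark 0 counts. Spp1 stood at 10950 CPM in CLP kidney and 1973 CPM in CLP + MLT kidney, while Krt18, Krt19 and Cd44 were not lower in CLP + MLT kidney.

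Havcr1 encodes kidney injury molecule KIM-1, a receptor for phosphatidylserine that lets tubule cells engulf dying neighbours. It lies at chr11:46735080-46779578 (GRCm38, as for all positions here, plus strand). The gene had 1517 counts in CLP kidney, 43 in CLP + MLT kidney, 12 in CLP heart and 0 in CLP + MLT heart. Only the CLP kidney library was high, at 66.2 CPM, with 2.61 CPM in CLP + MLT kidney. In kidney the log2 ratio was −4.46 (−4.94 to −4.03), 22.0-fold lower, the 20th lowest of all genes tested. By read count it moved from the 2800th to the 13031st gene of the library. In heart it did not reach the filter, with 12 counts in CLP and 0 in CLP + MLT. With the 0 set to a floor of 3 counts, Havcr1 was 3.97-fold lower in CLP + MLT heart. The upper bound of its log2 interval was −1.46.

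Spp1 (chr5:104435118-104441050, plus strand) encodes osteopontin, a secreted phosphoprotein that binds integrins and CD44. Its counts were 251014 in CLP kidney, 32496 in CLP + MLT kidney, 1531 in CLP heart and 855 in CLP + MLT heart. With 1.09% of all counts on genes it was the 9th most counted gene in CLP kidney, and in CLP + MLT kidney it took 0.197% and was the 30th. The log2 ratio was −2.28 (−2.29 to −2.26) in kidney, 4.85-fold lower. In heart it was −0.83 (−0.95 to −0.71), 1.78-fold lower. Spp1 supplied 93.4% of the counts of the 10 genes in CLP kidney and 89.5% in CLP + MLT kidney, so a sum over the list would mostly report this gene. A gene model on the same strand, Gm42793, overlaps exons of Spp1 and had 61 and 17 counts in the kidneys.

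Clu (chr14:65968483-65981547, plus strand) encodes clusterin, a secreted chaperone that also circulates in plasma. It had 15072 counts in CLP kidney and 2809 in CLP + MLT kidney, and 5083 and 3080 in the hearts. The kidney log2 ratio was −1.75 (−1.81 to −1.69), 3.37-fold lower, and the heart log2 ratio was −0.71 (−0.78 to −0.65), 1.64-fold lower. CLP kidney was therefore the highest and CLP + MLT kidney the lowest of the 4 libraries by CPM, with 657 and 171 CPM around 306 and 194 CPM in the hearts.

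Sox9 (chr11:112782224-112787760, plus strand) encodes a transcription factor that marks regenerating tubule cells. Its counts were 92 in CLP kidney, 11 in CLP + MLT kidney, 3 in CLP heart and 5 in CLP + MLT heart. The kidney log2 ratio was −2.35 (−3.44 to −1.49), 5.11-fold lower. In heart the gene was below the filter. Of 9 other SOX genes tested in kidney, 0 were lower past 1.5-fold and 1, Sox17 of endothelium, was higher with 0.71, and their median was 0.09.

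The 3 keratins, which form the intermediate filaments of epithelia, did not move together. Krt20 (chr11:99428403-99438150) and Krt19 (chr11:100140810-100148665) lie on the minus strand and Krt18 (chr15:102028180-102032027) on the plus strand. Krt20, a keratin of gut epithelium and of the surface cells of urothelium, had 78 counts in CLP kidney, 8 in CLP + MLT kidney and 0 in both hearts. Its log2 ratio in kidney was −2.56 (−3.88 to −1.56), 5.88-fold lower. Krt18, a keratin of simple epithelia that pairs with keratin 8, had 729 and 710 counts in the kidneys. With the smaller depth of CLP + MLT taken into account this was a log2 ratio of 0.63 (0.48 to 0.78), 1.55-fold higher. Krt19, found in ducts and simple epithelia, had 60 and 57 counts in the kidneys and a log2 ratio of 0.59 (0.05 to 1.15).

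For neither Krt18 nor Krt19 did the counting interval lie wholly past 1.5-fold. Krt8, the partner of Krt18, differed from it in kidney with 3954 and 1907 counts and a log2 ratio of −0.38 (−0.46 to −0.30), and Krt7 had 4663 and 4381 counts and a log2 ratio of 0.58. These partners were singled out after their values were seen. Of 6 other epithelial keratins tested in kidney, 1 was lower (Krt80, −0.86) and 1 higher (Krt15, 8 and 12 counts), and their median was 0.04.

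Vcam1 (chr3:116109949-116129688) and Cd44 (chr2:102811141-102901665), both on the minus strand, encode adhesion receptors. VCAM-1 on activated endothelium and injured tubule holds leukocytes by their integrins, and CD44 binds hyaluronan and osteopontin. Vcam1 had 189 counts in CLP kidney, 107 in CLP + MLT kidney, 192 in CLP heart and 155 in CLP + MLT heart. The log2 ratio was −0.15 (−0.50 to 0.20) in kidney and −0.30 (−0.61 to 0.01) in heart, and both intervals include 0, so these depths could not show a difference in either tissue. A gene model on the other strand, Gm43109, overlaps exons of Vcam1 and had 2 to 7 counts per library.

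Cd44 had 40 and 38 counts in the CLP and CLP + MLT kidneys, the fewest of the 10 genes in CLP kidney, and 124 and 121 in the hearts. Its log2 ratio of 0.59 in kidney had an interval of −0.08 to 1.28, which includes 0. In heart the log2 ratio was −0.03 (−0.40 to 0.35), and it was 0.03 with scaling by library size only.

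Timp1 (chrX:20870166-20874735, plus strand) encodes a secreted inhibitor of matrix metalloproteinases. Its counts were 88 in CLP kidney, 35 in CLP + MLT kidney, 199 in CLP heart and 46 in CLP + MLT heart. Both tissues were lower in CLP + MLT, by a log2 ratio of −0.65 (−1.27 to −0.08) in kidney and of −2.09 (−2.60 to −1.63) in heart. The heart difference was 4.26-fold and was the 77th lowest of 15871 genes tested there, while the kidney interval came within 0.08 of no difference.

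**Figure D2:**
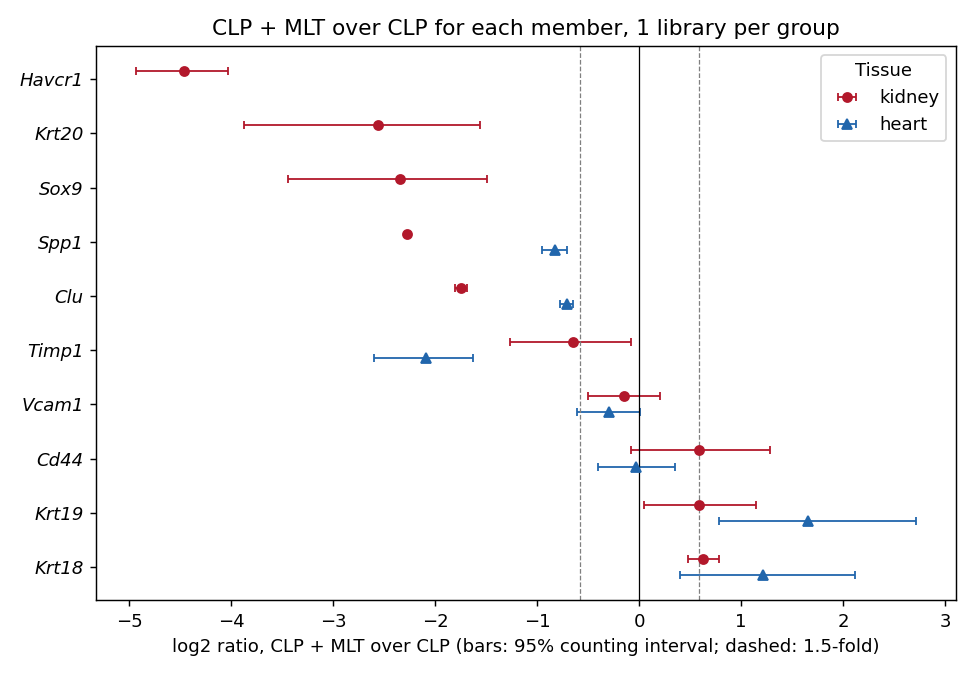
Log2 ratio of CLP + MLT over CLP for each gene, in kidney (circles) and heart (triangles), with 95% counting intervals as bars and 1.5-fold as dashed lines; genes under the filter in heart have no triangle. Havcr1, Krt20, Sox9, Spp1 and Clu lie wholly past the lower dashed line in kidney, and Timp1 lies farther from 0 in heart (−2.09) than in kidney (−0.65).

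With the stricter demand that the whole counting interval lie past 1.5-fold, 5 of the 10 genes were lower in kidney (Havcr1, Krt20, Sox9, Spp1 and Clu) and 0 were higher. Among all genes, 3.4% were lower and 3.57% higher by that demand, 6.97% in either direction. The 3 genes that were higher past 1.5-fold were all close to the mark. With scaling by library size only, which shifted the median of all kidney genes to −0.19, their log2 ratios were 0.44 for Krt18 and 0.40 for both Krt19 and Cd44, and 0 of the 10 genes were higher. The 6 lower genes were lower past 1.5-fold with that scaling too.

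In heart, 7 of the 10 genes passed the filter, and Havcr1, Sox9 and Krt20 did not. Past 1.5-fold, 3 were lower in CLP + MLT (Timp1, Spp1 and Clu) and 2 were higher (Krt18 and Krt19), beside 12.6% and 10.9% of all genes in heart and 23.5% in either direction. With the whole interval past 1.5-fold, 3 were lower and 1, Krt19, was higher, beside 4.45% and 2.89% of all genes and 7.35% in either direction. Krt18 had 18 counts in CLP heart and 42 in CLP + MLT heart, a log2 ratio of 1.21 (0.40 to 2.12). Krt19 had 13 and 42, a log2 ratio of 1.66 (0.78 to 2.72). The median over the 7 genes was −0.30, beside 0.0 for all genes. Havcr1, Krt20 and Sox9, which were not tested in heart, had the lowest kidney ratios of the 10. The kidney median of −1.20 therefore covers a different set of genes. Among the same 7 genes in kidney, the middle value was that of Vcam1, −0.15.

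Both keratins were higher in a heart library where many, but not all, kidney tubule genes were higher too. Of collecting duct markers, 9 of 9 tested were higher past 1.5-fold in CLP + MLT heart, with a median of 1.43, and their summed level was 17.0 CPM in CLP heart and 47.0 CPM in CLP + MLT heart. Of proximal tubule genes, 24 of 37 tested were higher and 3 lower, with a median of 0.84. Of tubule epithelium identity genes, 5 of 10 were higher and 0 lower, with a median of 0.75. Thick limb and distal tubule markers had 3 of 9 higher and 0 lower, with a median of 0.33, and Umod (459 and 468 counts) and Egf (188 and 164) were neither. Krt8 had 24 and 77 counts there and Krt7 had 39 and 100. Relative to the CPM in the kidney of the same treatment, the level in heart was 3.41% (CLP) and 6.14% (CLP + MLT) for Krt18 and 29.9% and 76.4% for Krt19. Over 11 collecting duct markers the median of that percentage was 0.939% and 2.41%, over 10 genes of tubule epithelium identity it was 1.45% and 2.40%, over 36 proximal tubule genes 1.81% and 4.23%, and over 10 thick limb and distal tubule markers 1.53% and 1.58%. Mesothelium, another source of keratins in heart, has 6 markers on its list, which summed to 18.8 and 23.2 CPM. Most of that sum was Wt1 (284 and 297 counts), which is also a podocyte marker. Msln, which encodes mesothelin, was higher in CLP + MLT heart (9 and 40 counts, with a log2 interval of 1.10 to 3.39), Upk3b had 0 and 4 counts, and Lrrn4 and Muc16 were at 0 in both hearts. The part of these in the heart values of Krt18 and Krt19 was not tested.

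The heart values of Spp1 and Havcr1 in CLP were 0.841% and 1.09% of those in kidney. In CLP + MLT the value was 2.73% for Spp1, and Havcr1 had 0 counts in heart. Apart from that 0, these percentages lie near the medians of the tubule lists. The part of kidney RNA in them, and in the heart log2 ratio of Spp1, was likewise not tested. For Timp1, Cd44 and Vcam1 the CLP heart level was 312%, 428% and 140% of the CLP kidney level.

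The difference between the tissues in the log2 ratio, heart minus kidney, was computed for the 7 genes measured in both. It was 1.45 for Spp1, 1.07 for Krt19 and 1.04 for Clu, and −1.44 for Timp1 and −0.62 for Cd44. Vcam1 (−0.15) and Krt18 (0.58) differed by less than 1.5-fold. Of 14592 genes tested in both tissues, 16.3% had a difference past 1.5-fold upward and 16.8% downward, 33.1% in all, against 3 upward and 2 downward of the 7. With 1 library per group the difference itself could not be tested.

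Levels between genes were compared per kilobase of exon, as CPM per kilobase (RPKM). In CLP kidney the order was Spp1 (6643), Clu (191), Havcr1 (28.6), Krt18 (22.1), Timp1 (4.32), Krt20 (1.77), Krt19 (1.41), Sox9 (0.970), Vcam1 (0.929) and Cd44 (0.258). In CLP + MLT kidney Spp1 (1197) and Clu (49.6) still led, followed by Krt18 (30.0), Timp1 (2.39), Krt19 (1.87) and Havcr1 (1.13), and Sox9 (0.162) had the smallest value. In that library the counting intervals overlapped for Timp1 and Krt19, Krt19 and Havcr1, Havcr1 and Vcam1, Cd44 and Krt20, and Krt20 and Sox9, so these neighbours have no clear order. Krt20 and Krt19, Krt19 and Sox9, and Sox9 and Vcam1 were neighbours in CLP kidney whose counting intervals overlapped.

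The hearts were led by Clu, with 89.0 RPKM in CLP and 56.4 in CLP + MLT, then Spp1 (55.9 and 32.7) and Timp1 (13.5 and 3.26). The other genes stood at 1.84 RPKM or less in both hearts.

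Kidney and heart were also compared within each treatment, with the 4 libraries scaled together. In CLP, 7 of the 10 genes were higher in kidney and 3 in heart past 1.5-fold, beside 37.3% and 33.5% of all genes. Spp1 was 88.3-fold, Havcr1 66.2-fold and Krt18 21.4-fold higher in kidney. Krt20 was 14-fold higher against a floor of 3 counts in heart, with a lower log2 bound of 3.48. Sox9 was 14.9-fold higher, but from 3 counts in heart, with a log2 interval of 2.45 to 6.35. Cd44 was 5.68-fold, Timp1 4.17-fold and Vcam1 1.88-fold higher in heart.

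In CLP + MLT, 8 genes could be compared and 3 were higher in each tissue, beside 36.4% and 34.7% of all genes. Spp1 was 31.3-fold higher in kidney and Krt18 13.8-fold. Havcr1 was 11.8-fold higher in kidney against a floor of 3 counts in heart, with a lower log2 bound of 3.2. Clu had been 1.60-fold higher in kidney in CLP and was 1.33-fold higher in heart in CLP + MLT, which is less than 1.5-fold.

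Other genes known to be induced in injured tubule were counted from a list that excludes the 10. The list was written with earlier results of these data known, so its counts are a description too. Of 40 such genes, 39 were tested in kidney. Past 1.5-fold 12 were lower and 2 higher in CLP + MLT, beside 11.6% and 11% of all genes, with a median log2 ratio of −0.38. With scaling by library size only, 19 were lower and 1 higher. The lowest of those with at least 50 counts on average were Lcn2, which encodes the iron-binding injury marker lipocalin (11346 and 1600 counts, −2.15), Tnfrsf12a, the receptor for TWEAK (2070 and 338, −1.94), and Cdkn1a, the cell cycle inhibitor p21 (560 and 107, −1.71). The 2 higher genes were Cryab, a small heat shock protein (4085 and 5369, 1.07), and S100a6 (297 and 300, 0.69). In heart, 4 of 35 were lower and 6 higher, beside 12.6% and 10.9% of all genes, with a median of 0.05. Lcn2 (3224 and 372, −3.10) and Cdkn1a (2516 and 628, −1.99) were the lowest there. Cryab and S100a6 were higher in kidney and lower in heart (−1.08 and −0.88).

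The partners of these proteins were listed by role. Beside the counts of these and later lists, 11.6% of all genes were lower and 11% higher past 1.5-fold in kidney. In heart the shares were 12.6% and 10.9%. Of receptors for osteopontin and CD44 and genes of hyaluronan, 2 of 15 were lower in kidney and 1 was higher, with a median of −0.21. The hyaluronidase gene Hyal1 was lower (200 and 73 counts, −0.78). The integrin gene Itgb3, singled out after its value was seen, had 71 and 5 counts (−3.06). In heart 4 of 16 were lower and 0 higher, among them Cemip2 (−1.03) and Vcan (−0.83), and the median was −0.05. Of the metalloproteinases and their inhibitors, 5 of 16 were lower and 1 higher in kidney, with a median of −0.21, and 7 of 17 were lower and 2 higher in heart, with a median of −0.44. Timp3, the most counted other TIMP in kidney, had 24319 and 10126 counts (−0.59), and Adam9 had −0.60. In heart Mmp3 (365 and 149 counts, −1.28) and Mmp24 (−0.91) were lower beside Timp1.

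Of adhesion genes beside Vcam1, 1 of 8 was lower in kidney and 4 were higher, with a median of 0.44. The lower one was Icam1, another endothelial ligand for leukocyte integrins (1422 and 499 counts, −0.84), and the higher ones included the leukocyte integrins Itgal (0.82) and Itgb2 (0.81). In heart 3 of 10 were lower and 2 higher, with a median of 0.08. Of the family of KIM-1 and other genes for the uptake of dying cells, 3 of 14 were lower and 1 higher in kidney, with a median of −0.39. Timd2, a relative of Havcr1, was the lowest of those with at least 50 counts on average (2110 and 453, −1.55), and Cd36 had −0.62. In heart 0 of 12 passed 1.5-fold in either direction, with a median of 0.05.

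Genes of the differentiated tubule did not move as the mirror image of the 10. Of 38 proximal tubule genes in kidney, 12 were lower, 10 were higher and 16 were neither, with a median of 0.0. The sodium-coupled lactate transporter gene Slc5a12 (955 and 60 counts, −3.31) and the phosphate transporter gene Slc34a3 (187 and 18, −2.68) were lower, and the amino acid transporter gene Slc7a13 (1666 and 4936, 2.24) was higher. With scaling by library size only, 3 were higher in place of 10. Genes of tubule epithelium identity had a median of 0.15, with 0 of 11 lower. Thick limb and distal tubule markers had 4 of 11 higher and 0 lower, with a median of 0.30, led by Pvalb (1.89), Slc12a1 (1.07) and Egf (1.01). Collecting duct markers also had 4 of 11 higher and 0 lower, with a median of 0.47, among them Avpr2 and Fxyd4 (both 0.87) and Aqp4 (0.82).

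**Figure D3:**
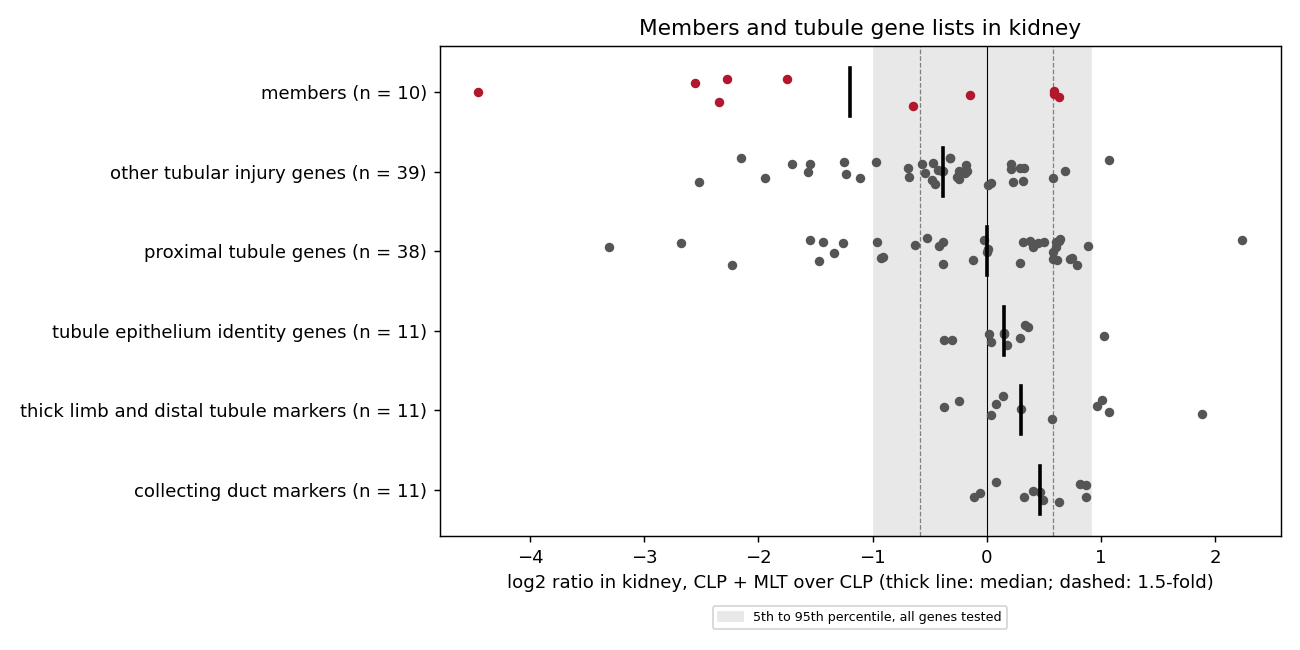
Log2 ratio in kidney, CLP + MLT over CLP, for the 10 genes (red, listed as members) and for 5 lists of tubule genes (grey); each point is a gene, thick lines are medians and the shaded band spans the 5th to the 95th percentile of all genes tested. The median was −1.20 for the 10 genes and −0.38 for the other tubular injury genes, and between 0.0 and 0.47 for the 4 lists of segment and identity genes.

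Cell types that can also express members of the list were read as marker lists in the same libraries. Macrophages express Spp1, Cd44 and Timp1, and their 13 markers, of which 0 were at 0 counts, summed to 146 CPM in CLP kidney and 239 CPM in CLP + MLT kidney. Of 10 tested, 3 were higher past 1.5-fold and 0 lower (Lyz2 1.81, Csf1r 1.13 and Adgre1 0.69), and the list's median was 0.29. The other 7 were neither, among them Cd68 (−0.49), C1qa and C1qc (both 0.09) and Fcgr1 (0.04). In heart the macrophage sum was 297 and 337 CPM, with 6 of 13 lower and 3 higher and a median of −0.55. The lower ones included C1qa (888 and 508 counts, −0.80), Mrc1 (407 and 220, −0.88) and Cd163 (279 and 150, −0.88). Adgre1 (1.56) and Lyz2 (1.13) were among the higher ones.

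Neutrophil markers summed to 24.7 and 15.5 CPM in the CLP and CLP + MLT kidneys, with Ly6g and Elane at 0 in both, and to 53.7 and 39.9 CPM in the hearts. Their medians were −0.42 and −0.68, with 3 of 6 tested lower in each tissue. S100a9 was lower in both (−0.74 and −0.80), and 1 marker, Retnlg, was higher in kidney (26 and 30 counts, 0.86). Lymphocyte markers stayed between 1.74 and 2.91 CPM in sum, with Ms4a1 at 0 in all 4 libraries.

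Endothelium markers, relevant to Vcam1, summed to 467 and 330 CPM in the kidneys, with 0 of 10 past 1.5-fold and a median of −0.28. In the hearts they summed to 1390 and 1640 CPM, with 2 of 10 higher (Kdr 0.91 and Ehd3 0.62) and a median of 0.25. Fibroblast markers, relevant to Timp1, summed to 254 and 206 CPM in the kidneys, with 1 of 9 lower (Col1a1, −0.62), 2 higher (Fn1, 0.71, among them) and a median of −0.08. In the hearts they summed to 742 and 622 CPM, with 1 of 10 lower (Col1a1, −0.92) and a median of −0.29.

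Urothelium markers, relevant to Krt20 and Krt19, summed to 21.1 and 29.7 CPM in the kidneys, with Upk3a at 0 in CLP and Upk2 at 0 in CLP + MLT. Most of that sum was Gata3 (415 and 416 counts), while the uroplakin gene Upk1a had 17 and 9 counts. Of 4 tested, 3 were higher and 0 lower (Gata3 0.67), with a median of 0.94. The other higher ones were Psca (8 and 14 counts) and Krt15 (8 and 12, with a log2 interval of −0.15 to 2.75). That median therefore rests on few reads. In the hearts they summed to 3.67 and 9.19 CPM. Mesothelium markers summed to 67.8 and 72.0 CPM in the kidneys, with 1 of 4 tested higher (Upk3b, 0.93), 0 lower and a median of 0.17. Most of that sum was Gpm6a (1076 and 926 counts) and Wt1 (441 and 226), which is also a podocyte marker. Msln had 19 and 11 counts. Podocyte markers had a median of −0.31 in kidney, with 2 of 6 lower (Podxl, −0.62, among them) and 0 higher. In heart their median was −0.03, with 0 of 5 lower and 0 higher. Hepatocyte markers had medians of 0.06 in kidney and −0.08 in heart. The most counted of them in kidney were Apob (2913 and 1726 counts) and Serpina1a (2070 and 2928), while Alb had 114 and 71. In kidney 2 of 5 were higher (Serpina1a 1.17 and F2 1.10) and 0 lower, and in heart Alb was lower (140 and 70 counts, −0.99) and Serpina1a higher (22 and 72, 1.70). Cardiomyocyte markers had a median of −0.45 in heart, with 4 of 10 lower and 0 higher. Myl3 (−1.46) and Myl2 (−1.33) were lowest, and 6 were neither, among them Ttn (0.20) and Actc1 (0.47). The part of any of these cell types in the values of the 10 genes was not tested.

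**Figure D4:**
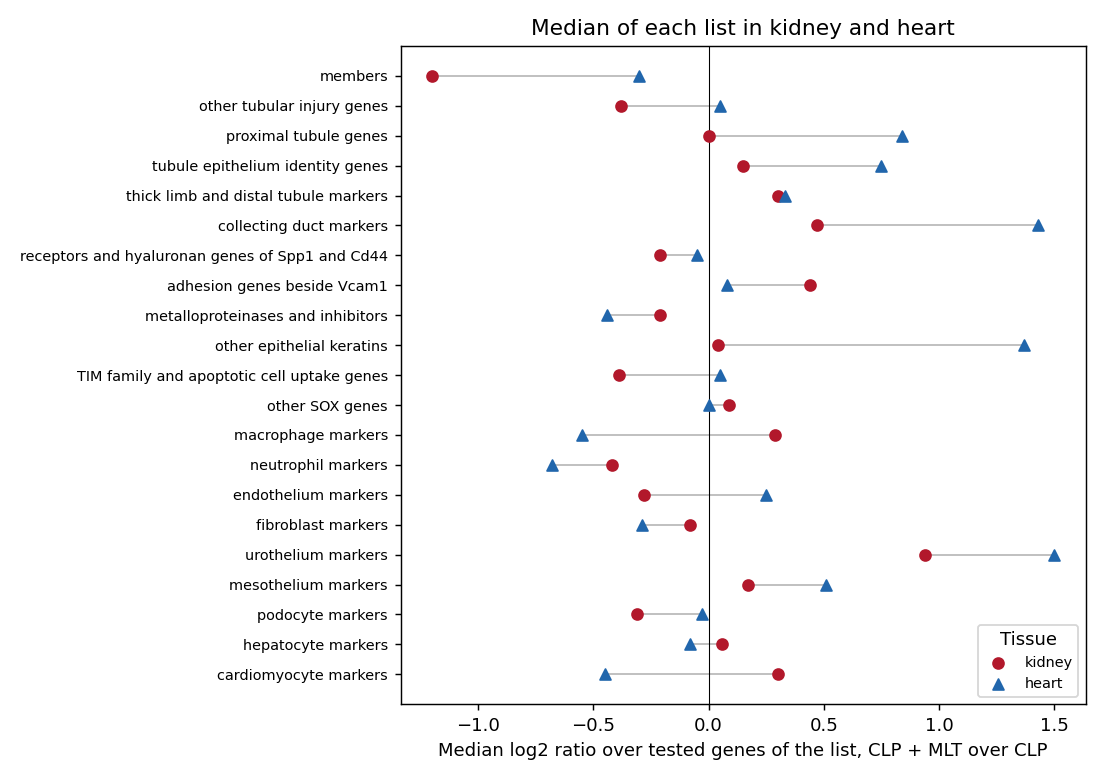
Median log2 ratio, CLP + MLT over CLP, of the tested genes of each list in kidney (circles) and heart (triangles), joined by a line; the lymphocyte list, with no gene tested in heart, is left out. The 10 genes, listed as members, lie lowest in kidney (−1.20), and the 7 of them tested in heart lie at −0.30 there. The kidney and heart medians of the members thus cover different genes. Urothelium markers (1.50, 2 genes), collecting duct markers (1.43) and other epithelial keratins (1.37) lie far to the right in heart.

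The single gene with the most similar pattern over the 4 libraries was sought among 13468 others with at least 50 counts on average. Similarity was the smallest distance between centred log2 CPM profiles, with 0.5 CPM added before the log. That addition sets most of the heart value for Sox9 (3 and 5 counts) and all of it for Krt20 (0 in both hearts). For Havcr1 it sets all of the CLP + MLT heart value (0 counts) and a large part of the CLP heart value (0.722 CPM). With only 4 libraries the genes found are neighbours in shape and nothing more. Havcr1 was nearest to Fgg, a fibrinogen chain gene (13553, 622, 162 and 106 counts in CLP kidney, CLP + MLT kidney, CLP heart and CLP + MLT heart), at a distance of 0.645. Spp1 was nearest to Timd2 at 0.820. Sox9 was nearest to Cbr3 (0.151) and Krt20 to Rcan1 (0.287). Krt18 was nearest to the proximal tubule and podocyte peptidase gene Mme (0.098), and Krt19 to Cep70 (0.157). Timp1 was nearest to Gm11827 (0.344). Vcam1 and Cd44 had the closest neighbours of those given, Arid4b (0.024) and Clk1 (0.029).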

How the data were processed

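A total of 4 RNA-seq libraries (kidney and heart, CLP and CLP + MLT, 1 each) were analysed. The authors trimmed reads with trim-galore, aligned them to mm10 with HISAT2 2.1.0 and, per the submitters' processing notes, used HTSeq. The deposited values are raw counts per gene, without normalization. No source used here gives the annotation, strand setting or HTSeq version, so reads of overlapping genes cannot be told apart by strand. Each file ends with 5 rows naming no gene (65.5% to 72.8% of its total), which were left out.

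Symbols and exon lengths came from GENCODE M21 (GRCm38), matching 55141 of 55401 identifiers. TMM factors were computed within each tissue (edgeR 4.0.16, R 4.3.3), and over 4 libraries for kidney against heart. Log2 ratios used a prior count of 0.5, and genes averaging under 10 counts in a tissue were not tested. Because 1 library per group allows no dispersion estimate, the study's edgeR p-value was not used, and only its fold of 1.5 was kept. Intervals are 95% Clopper-Pearson and cover counting error only. They may be too narrow even for that, since PCR copies are not independent molecules. Floors replace 0 by 3 counts and leave out the counting error of the other library. CPM used the library size. Python 3.11.15 and scipy 1.17.1 gave the intervals and summaries. The procedure was tested on simulated data. The genes and lists were chosen with earlier results of these data known. Named were all 10 genes and, from each list, up to 3 genes past 1.5-fold in kidney and 2 in heart with the largest differences and a mean of at least 50 counts, others being chosen after their values were seen. Alternatives were library size only, DESeq2 1.42.0 size factors, upper quartile scaling, no filter, a minimum mean of 50 counts, prior count 5, mitochondrial and haemoglobin genes left out, 2-fold, and the whole interval past 1.5-fold. Scaling to the tubule epithelium identity genes was added after seeing the data. Values of a few genes that this rule names are not reported here.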

Additional observations from a re-analysis of the deposited data

How the results depend on the processing

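The count of 6 lower genes in kidney and its median of −1.20 kept their direction under every alternative run, with 5 lower in place of 6 at the 2-fold mark, at the whole-interval mark and at a minimum mean of 50 counts. The count of 3 higher genes in kidney became 0 with library size only, with 2-fold, with the whole interval past 1.5-fold and with scaling to the tubule epithelium identity genes (chosen after seeing the data), 1 with a prior count of 5, and 2 at a minimum mean of 50 counts. Of the other tubular injury genes in kidney, 12 lower and 2 higher became 19 and 1 with library size only and 18 and 1 with scaling to the identity genes. In heart, the 3 lower genes became 1 with 2-fold, and the 2 higher genes became 0 with a mean of at least 50 counts, where Krt18 and Krt19 were no longer tested, and 1 with the whole interval past 1.5-fold. The heart median of −0.30 became −0.71 at a minimum mean of 50 counts, since fewer genes were tested. Of all list genes, 188 calls over both tissues became 101 with 2-fold and 112 with the whole interval. Of all kidney genes, 1971 lower and 1863 higher became 3172 and 1149 with library size only. No filter gave 5984 lower and 4711 higher in kidney, and 5378 and 5083 in place of 1997 and 1726 in heart. A mean of at least 50 counts gave 1012 and 1002 in kidney and 1143 and 727 in heart, and 2-fold gave 830 and 699, and 829 and 730. No paired analysis was possible because each group has 1 library. Genes with fewer than 100 counts, such as Krt20, Sox9, Krt19, Cd44 and Timp1 in kidney, have wide intervals, and no alternative replaces the missing replicates.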
